A study of Mus musculus with 24 samples.

Results

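The genes described here are the neighbours of Foxo6 on mouse chromosome 4: every measured gene whose whole body lies within 10 Mb of Foxo6 on assembly GRCm38.p6, with Foxo6 itself left out. There were 251 such genes among the 19938 genes tested, 123 on the centromere side of Foxo6 and 128 on the telomere side. Each gene was represented by a probe (transcript cluster) that carries 1 gene symbol, and by the brightest on average of these where it had more than 1. The rule that picks the genes uses only their position, and measured values entered in choosing among several probes of a gene. The annotation places 277 protein-coding genes in the window, of which 238 were measured and 39 had no such probe, and the other 13 measured genes are not annotated as protein-coding.

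RNA from the hippocampus of male mice, 8 to 9 weeks old and on a mixed C57BL/6J-129sv background, was hybridised to 24 Affymetrix arrays. WT mice and homozygous mutants, which the labels call both FoxO6 -/- and FoxO6 null, were taken in 2 states, basal and after learning, giving 4 groups of 6 arrays. Basal mice had been housed singly for at least 3 days, and learning mice were killed 60 min after exploring a pair of identical objects for 10 min. The learning mice had also been handled daily and had visited the empty arena for 10 min 24 h earlier, so task, handling and housing cannot be told apart in comparisons of the states. The table holds no genotype of the chromosome around Foxo6, so the Foxo6 mutation and any linked sequence difference between mutant and WT mice on this mixed background cannot be told apart either.

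Foxo6 encodes a forkhead transcription factor that is expressed in neurons of the hippocampus. Genes that lie close together on a chromosome are inherited together, so a mouse selected for a mutation also tends to carry the alleles that surround it. The neighbourhood of Foxo6 holds genes for parts of the Mediator complex, the respiratory chain and the translation machinery, beside neuronal receptors and clusters of gene families that are little used in brain.

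Values are on a log2 scale, so that a difference of 1 is a doubling, and differences are mutant minus WT unless stated. Genes count as called where limma's adjusted p, taken over all 19938 genes, was under 0.05. Foxo6 itself was checked first. In basal mice it lay between 6.78 and 7.30 in WT (median 7.04) and between 6.18 and 6.59 in mutants (median 6.26). After learning it lay between 6.62 and 7.04 in WT (median 6.90) and between 5.98 and 6.38 in mutants (median 6.28). All mutant arrays were below all WT arrays of the same state. The difference was -0.73 (SE 0.0906, adjusted p 0.000128) at basal and -0.63 (SE 0.0906, adjusted p 0.000833) after learning. The labels do not say which part of the gene was removed, so where the probe lies relative to it is not known here.

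Markers of the cell types of the hippocampus were present in all groups, and some moved with genotype. All 8 markers of choroid plexus, a tissue next to the hippocampus, had higher means in mutants in both states, with 0 of 8 called. Their mean level ranged from 6.24 to 7.44 in WT basal, 6.88 to 7.48 in mutant basal, 6.30 to 6.68 in WT learning and 6.25 to 7.41 in mutant learning arrays. Ttr, the defining transcript of that tissue, was between 8.80 and 9.64 in WT basal arrays 4, 5 and 6, below all other basal arrays (11.01 to 12.11). All 6 markers of dentate granule cells were lower in mutants in the average of both states, 3 of them called. In the same average 5 of 6 interneuron markers were higher, with 0 called. Of all genes 0.391% were called in the average, so the counts of 0 are no result about choroid plexus or interneuron markers. In bulk tissue fewer cells of a type and less RNA per cell cannot be told apart. The part of these shifts in the results below was not tested, apart from the fits that left out WT basal arrays 4, 5 and 6 or took the choroid plexus markers as a covariate.

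Few neighbours of Foxo6 differed between genotypes, and those few went in both directions. At basal 4 of the 251 genes were called (1.59%), Ndufs5 and Thrap3 lower and Hyi and Ppt1 higher in mutants, against 0.1% of all genes tested (0.0451% higher and 0.0552% lower). After learning 5 were called (1.99%), Hyi higher and Ndufs5, Thrap3, Med8 and Cap1 lower, against 0.0752% of all genes (0.015% higher and 0.0602% lower). In the average of both states, which uses all 24 arrays, 14 were called (5.58%), 7 higher and 7 lower, against 0.391% of all genes (0.176% higher and 0.216% lower). These 14 genes had the same direction in both states, which a call on the average favours, and 13 of them differed by less than 0.5 on the log2 scale, the exception being Ndufs5. The median size of the average difference, regardless of sign, was 0.0439 over the 251 genes and 0.038 over all genes. Of the 95% confidence intervals of the average difference, 225 of 251 (89.6%) lay wholly within ±0.25, a 1.19-fold change, against 92.9% of all genes.

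**Figure D1:**
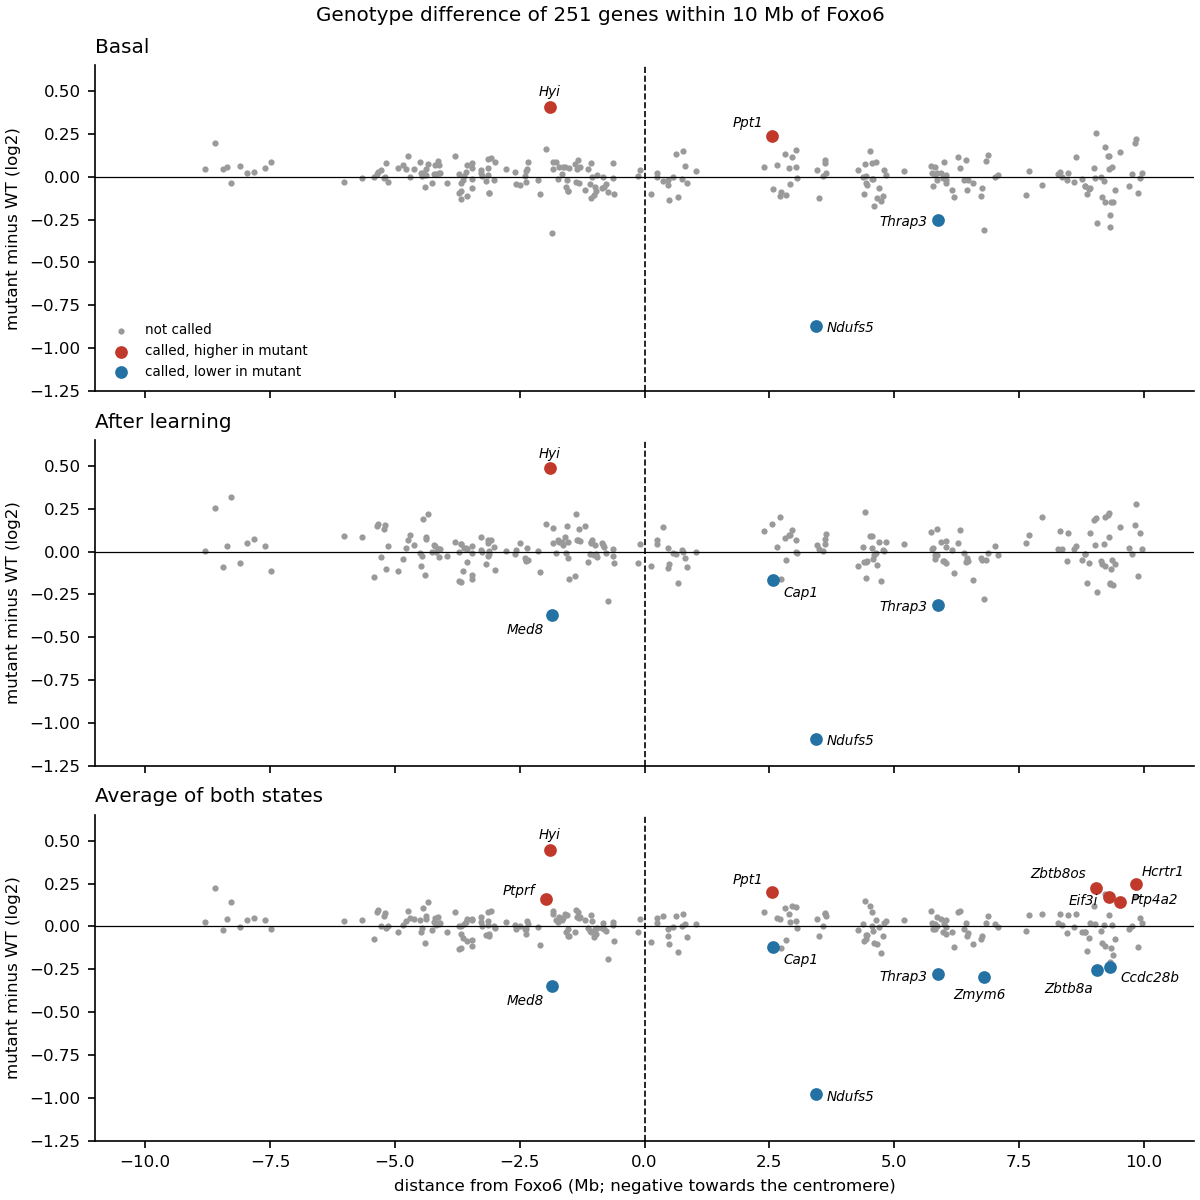
Difference between mutant and WT (log2, vertical axis) of each of 251 genes against its distance from Foxo6 in Mb (horizontal axis), at basal, after learning and in the average of both states. Grey points were not called, and coloured points were called at an adjusted p under 0.05; Ndufs5 is the lowest point in all panels, and the 5 genes nearest to Foxo6 on each side are grey in all panels.

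The largest difference was in a gene of the respiratory chain. Ndufs5 encodes an accessory subunit of mitochondrial complex I, which passes electrons from NADH to ubiquinone, and lies 3.43 Mb from Foxo6 on the telomere side. At basal it lay between 8.54 and 9.26 in WT (median 9.10) and between 7.76 and 8.39 in mutants (median 8.21). After learning it lay between 9.21 and 9.76 in WT (median 9.69) and between 8.21 and 8.77 in mutants (median 8.53). In both states every mutant array was below every WT array. The difference was -0.87 at basal (95% interval -1.10 to -0.64, adjusted p 0.000134) and -1.09 after learning (-1.32 to -0.86, adjusted p 3.68e-06). In the average the signal of this probe in mutants was 0.507 of that in WT (adjusted p 1.33e-08), which is 49.3% lower. The measured genes on either side of it gave average differences of -0.01 (Macf1, a crosslinker of actin and microtubules, adjusted p 0.977) and 0.04 (Akirin1, a nuclear protein of muscle development, adjusted p 0.817). A separate probe names both Ndufs5 and the pseudogene Ndufs5-ps, and its average difference was smaller, -0.24 (adjusted p 0.0178). That probe was not called at basal (-0.22, adjusted p 0.689) or after learning (-0.27, adjusted p 0.259). Probe sequences were not compared with sequence differences between the background strains, for Ndufs5 or any other neighbour. The part of such differences in the signals was not tested.

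The other mitochondrial genes near Foxo6 were not called, which with 0.391% of all genes called in the average is no result about them. Of 6 measured genes on that list only Ndufs5 fell in the genotype comparisons, and the median average difference of the list was 0.0048, against 0.00645 over all genes. Tmem69 had an average difference of -0.13 (adjusted p 0.707), and Uqcrh, the hinge subunit of complex III, one of 0.05 (adjusted p 0.717). The 3 genes whose deviations from the group means followed those of Ndufs5 most closely over the 24 arrays were Uqcrh (Pearson r 0.595), Rbbp4 (0.578) and Eif3i (0.578), and the most opposed were Elovl1 (-0.589), Mir30c-1 (-0.584) and Mknk1 (-0.579). These r values describe arrays that share their processing. They are the extremes of the neighbours ranked, with clone names, olfactory receptor genes and pseudogenes skipped.

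The sequence just before the start that the promoter table gives is printed for Ndufs5 and Thrap3, the genes that were lower in both states with no overlap of the arrays. It is the 250 bases before the start, 5′ to 3′ on the strand of the gene, from RefSeq on GRCm38.p6, at chr4:123718187-123718436 (minus strand) and chr4:126202711-126202960 (minus strand).
Ndufs5: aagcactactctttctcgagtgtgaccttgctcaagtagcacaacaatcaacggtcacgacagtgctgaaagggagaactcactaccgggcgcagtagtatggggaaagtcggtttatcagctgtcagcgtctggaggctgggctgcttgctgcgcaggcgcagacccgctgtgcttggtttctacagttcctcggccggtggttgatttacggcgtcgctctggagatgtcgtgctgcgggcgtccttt
Thrap3: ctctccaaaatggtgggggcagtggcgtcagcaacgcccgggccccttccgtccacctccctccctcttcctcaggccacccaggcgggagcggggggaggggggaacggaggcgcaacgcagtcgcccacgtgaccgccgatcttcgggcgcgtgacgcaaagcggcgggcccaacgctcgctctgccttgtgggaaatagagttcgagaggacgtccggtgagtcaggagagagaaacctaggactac
Searched on both strands were the forkhead core GTAAACA, the cyclic AMP response element TGACGTCA, the CCAAT box CCAAT, the GC box GGGCGG and the TATA box TATAAA. None of these letters occurs in either stretch, so none is in capitals. Of 214 neighbours with a promoter in the table, which have 267 promoters in all, 2 promoters held the forkhead core (0.749%), against 3.17% of all 32851 promoters. The 2 promoters belong to Ccdc30 and Guca2a, which were not called. Promoters of neighbours were also richer in G and C (median 59.2%, against 52.4% over all promoters). The part of base composition in the share of the forkhead core was not tested. For 10 of the 14 genes called in the average the table holds a promoter. Of their 12 promoters 0 held the forkhead core, 4 held CCAAT (33.3%, against 33.8% of all promoters), 2 held a GC box (16.7%, against 32.7% of all promoters and 50.9% of the 267 promoters of neighbours) and 1 held TATAAA (8.33%, against 12.4%). A match of letters is no evidence of binding.

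Genes of transcription and chromatin gave 3 of the 14 calls by the list used here, all lower in mutants. Of 31 measured genes on the list 0 rose and 3 fell in the average. Of the neighbours 2.79% were higher and 2.79% lower, and of all genes 0.176% and 0.216%. The median difference of the list was 0.0046, against 0.00645 over all genes. Thrap3 encodes a nuclear protein that takes part in transcriptional activation and pre-mRNA splicing, and lies at 5.88 Mb. At basal it lay between 9.38 and 9.52 in WT (median 9.45) and between 9.11 and 9.26 in mutants (median 9.22). After learning it lay between 9.58 and 9.80 in WT (median 9.67) and between 9.21 and 9.53 in mutants (median 9.33). The arrays of the genotypes did not overlap in either state. The difference was -0.25 at basal (adjusted p 0.0191) and -0.31 after learning (adjusted p 0.00133), and the average was -0.28 (95% interval -0.35 to -0.21, adjusted p 7.4e-06). The basal call was lost when array 2 or 3 of WT basal, or array 2, 3 or 6 of mutant basal, was left out (adjusted p 0.0515 to 0.0781), and without WT basal arrays 4, 5 and 6 it was -0.26 with an adjusted p of 0.115.

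Med8, a subunit of the Mediator complex that links transcription factors to RNA polymerase II, lies 1.85 Mb to the centromere side. At basal it lay between 7.10 and 7.53 in WT (median 7.44) and between 6.92 and 7.24 in mutants (median 7.09), with an overlap of the genotypes. In learning mice it lay between 7.90 and 8.22 in WT (median 8.12) and between 7.47 and 7.91 in mutants (median 7.76), again with an overlap. The difference was -0.33 at basal (adjusted p 0.104), -0.37 after learning (adjusted p 0.044) and -0.35 in the average (95% interval -0.46 to -0.24, adjusted p 0.000692). The call after learning was lost in 17 of the 24 fits that left out 1 array, with adjusted p up to 0.14, and the basal difference without WT basal array 6 was -0.39 with an adjusted p of 0.0156. Zmym6, which encodes a zinc finger protein of the MYM type, lies at 6.79 Mb and had an average difference of -0.29 (SE 0.0534, adjusted p 0.00599). Its WT arrays at basal (8.24 to 8.53) overlapped with the mutant arrays (7.85 to 8.32). Zbtb8a, which encodes a BTB and zinc finger protein, lies at 9.07 Mb and had an average difference of -0.25 (SE 0.0437, adjusted p 0.00297). At basal its mutant arrays (6.44 to 6.78) lay below all WT arrays (6.86 to 6.97), and after learning the genotypes met at 6.87.

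**Figure D2:**
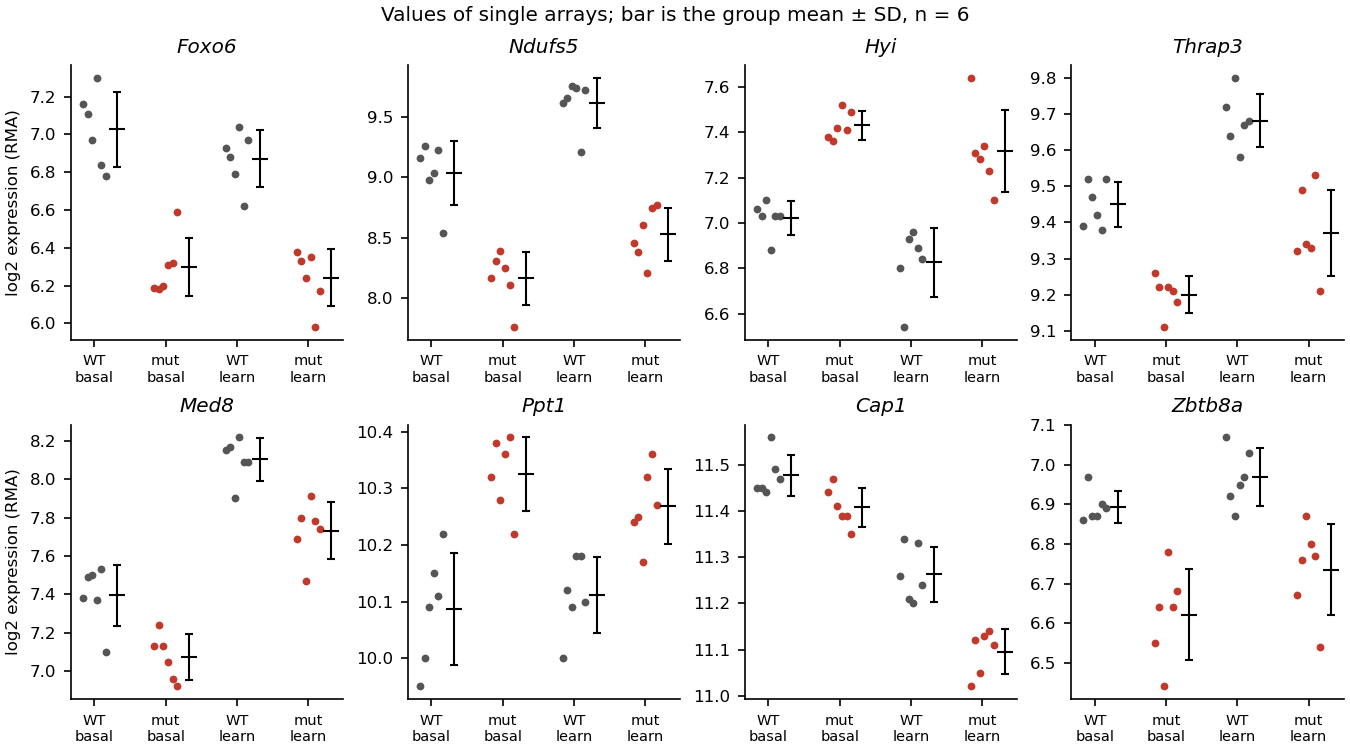
Log2 value of each array (vertical axis) for Foxo6 and 7 of its neighbours in WT and mutant (mut) mice, basal and after learning (learn), with the group mean ± SD beside the points (n = 6). In each state all mutant arrays of Foxo6, Ndufs5 and Thrap3 lie below, and all mutant arrays of Hyi above, the WT arrays.

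Among metabolic enzymes and transporters Hyi was the single gene called in the genotype comparisons, of 19 measured. In the average 5.58% of the neighbours and 0.391% of all genes were called. Hyi is named for a putative hydroxypyruvate isomerase, is annotated as a transcribed pseudogene in the RefSeq table used here, and lies 1.90 Mb to the centromere side. At basal it lay between 6.88 and 7.10 in WT (median 7.03) and between 7.36 and 7.52 in mutants (median 7.42). After learning it lay between 6.54 and 6.96 in WT (median 6.87) and between 7.10 and 7.64 in mutants (median 7.29). Every mutant array was above every WT array of its state. The difference was 0.41 at basal (95% interval 0.26 to 0.56, adjusted p 0.0151) and 0.49 after learning (0.34 to 0.64, adjusted p 0.00133). The average was 0.45 (adjusted p 5.86e-06), a signal 1.36-fold that in WT. Its basal call was lost without WT basal array 4 (0.38, adjusted p 0.0507) and without WT basal arrays 4, 5 and 6 (0.37, adjusted p 0.199).

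Ppt1 encodes palmitoyl-protein thioesterase 1, a lysosomal enzyme that removes fatty acids from proteins and whose loss causes a neuronal storage disease in humans. It was the single gene called of 9 measured on the list of lysosome, lipid and glycan genes. Of the neighbours 5.58% and of all genes 0.391% were called in the average. At basal Ppt1 lay between 9.95 and 10.22 in WT (median 10.10) and between 10.22 and 10.39 in mutants (median 10.34). In learning mice it lay between 10.00 and 10.18 in WT (median 10.11) and between 10.17 and 10.36 in mutants (median 10.26). The genotypes met at 10.22 at basal, where no mutant array was below a WT array, and overlapped slightly after learning. The difference was 0.24 at basal (adjusted p 0.0151), 0.16 after learning (adjusted p 0.302) and 0.20 in the average (95% interval 0.14 to 0.26, adjusted p 0.000734). The basal call was lost without WT basal array 2 (0.22, adjusted p 0.0623) or mutant basal array 2 (0.23, adjusted p 0.0515).

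Cap1, a regulator of actin filament turnover, lies next to Ppt1 and went the other way. At basal it lay between 11.44 and 11.56 in WT (median 11.46) and between 11.35 and 11.47 in mutants (median 11.40), with an overlap. In learning mice it lay between 11.20 and 11.34 in WT (median 11.25) and between 11.02 and 11.14 in mutants (median 11.12), without overlap. The difference was -0.07 at basal (adjusted p 1), -0.17 after learning (adjusted p 0.0184) and -0.12 in the average (95% interval -0.16 to -0.07, adjusted p 0.00648). The call after learning did not survive leaving out array 1 (-0.15, adjusted p 0.0843) or 3 (-0.16, adjusted p 0.0648) of the mutants, or array 2 (-0.15, adjusted p 0.092) or 5 (-0.15, adjusted p 0.0724) of WT. Without WT basal arrays 4, 5 and 6 the average was -0.11 with an adjusted p of 0.0702. Of 9 measured cytoskeletal genes Cap1 was the 1 that fell, and 0 rose. The shares called in the average were 5.58% of the neighbours and 0.391% of all genes. Ppt1 is on the plus strand and Cap1 on the minus strand, 2.55 and 2.57 Mb from Foxo6, and their 3′ ends overlap by 128 bases in the annotation.

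For the 6 genes Ndufs5, Hyi, Thrap3, Med8, Ppt1 and Cap1 an exact two-sided permutation test was also made in each state over all ways to split 12 arrays into groups of 6, 12 tests in all. The exact p was 0.00216, the smallest these groups can give, for Ndufs5, Hyi and Thrap3 in both states, for Ppt1 at basal and for Cap1 after learning. It was 0.00866 and 0.00433 for Med8 at basal and after learning, 0.00649 for Ppt1 after learning and 0.0173 for Cap1 at basal. These genes were chosen with their differences known, so the exact p values add no independent support.

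Receptors and signalling genes gave 3 calls, all higher in mutants. Ptp4a2, a tyrosine phosphatase that is anchored in membranes by prenylation, had an average difference of 0.14 (SE 0.0262, adjusted p 0.0061). Hcrtr1, the orexin receptor type 1, had one of 0.25 (SE 0.0554, adjusted p 0.0355), and its mutant arrays lay above all WT arrays after learning. Ptprf, a receptor tyrosine phosphatase of the LAR type that takes part in forming synapses, had one of 0.16 (SE 0.0362, adjusted p 0.0355), and its mutant arrays lay above all WT arrays at basal. In the average 5.58% of the neighbours and 0.391% of all genes were called. Hcrtr1 and Ptprf were the 2 genes called of 13 measured on the list of neuronal channels, receptors and synapse genes. Without WT basal arrays 4, 5 and 6 their adjusted p values were 0.0714 and 0.206, and with the choroid plexus markers as a covariate 0.101 and 0.243.

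The remaining calls were in genes of RNA handling and of cilia. Eif3i, a subunit of the translation initiation factor eIF3, had an average difference of 0.17 (SE 0.039, adjusted p 0.0369). It was the single gene called of 19 measured on the list of RNA processing and translation. In the average 5.58% of the neighbours and 0.391% of all genes were called. The median difference of that list was -0.0492. Zbtb8os, the mammalian archease that assists the tRNA splicing ligase, had an average difference of 0.22 (SE 0.0502, adjusted p 0.0355). Ccdc28b, which in humans is known as a modifier of a disorder of cilia, had one of -0.24 (SE 0.0518, adjusted p 0.0278). Without WT basal arrays 4, 5 and 6 these 3 genes had adjusted p values of 0.217, 0.193 and 0.116, and with the choroid plexus markers as a covariate 0.245, 0.18 and 0.117. Of the 24 fits that left out 1 array, the average call was lost in 7 for Ccdc28b, 12 for Hcrtr1, 13 for Ptprf, 17 for Zbtb8os and 19 for Eif3i. On the list of cell division and DNA repair 0 of 10 measured genes were called in a genotype comparison. With 0.391% of all genes called in the average, this count is no result about the list. Its smallest p values in the average were those of Kif2c (a kinesin of the spindle, 0.09, adjusted p 0.68) and Clspn (a protein of the replication checkpoint, 0.08, adjusted p 0.71).

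**Figure D3:**
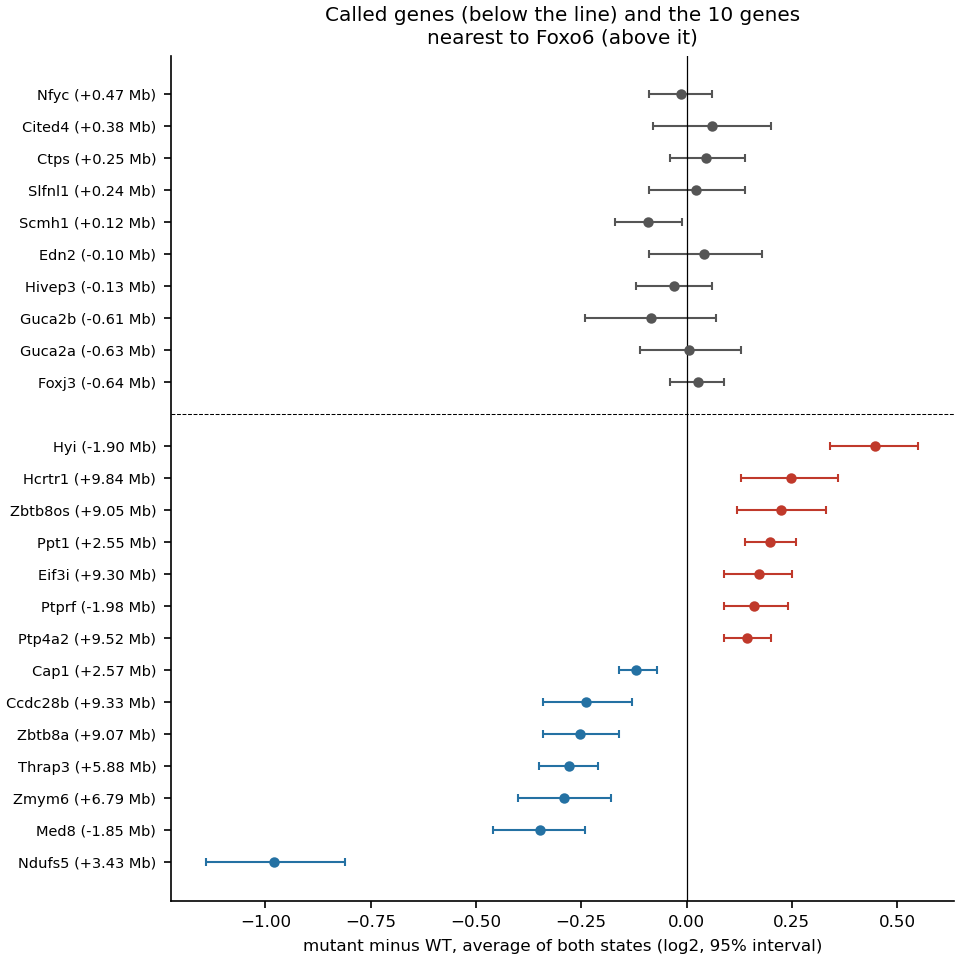
Average difference between mutant and WT over both states (log2, horizontal axis, with 95% confidence intervals) of the 14 genes called near Foxo6, below the dashed line, and of the 10 measured genes nearest to Foxo6, above it, each with its distance from Foxo6 in Mb. The intervals of the 10 nearest genes lie between -0.24 and 0.20.

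The 10 measured genes closest to Foxo6 were looked at one by one. The 5 nearest on the centromere side were Foxj3, Guca2a, Guca2b, Hivep3 and Edn2, between 0.64 and 0.10 Mb away. They encode a forkhead factor, the guanylate cyclase activators guanylin and uroguanylin, a zinc finger factor and the vasoconstrictor peptide endothelin 2. The 5 nearest on the telomere side were Scmh1, a Polycomb protein, Slfnl1, Ctps, a CTP synthase, Cited4, a transcriptional coactivator, and Nfyc, a subunit of the CCAAT-binding factor NF-Y, between 0.12 and 0.47 Mb away. In the average 0 of these 10 were called, against 0.391% of all genes, a rate at which 10 genes say nothing about the nearest genes as a group. They were not called in either state by itself, and their average differences had 95% intervals between -0.24 and 0.20. Scmh1 had the lowest average difference, -0.09 (unadjusted p 0.0265, adjusted p 0.475).

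The positions of the called genes are given as a description, since the ends of every stretch named here are called genes chosen after their values were seen. Between Med8 and Ppt1, the called genes that flank Foxo6 on its 2 sides, lay 55 measured genes, and beyond Ptprf on the centromere side lay 81, with 0 called in both stretches. With 0.391% of all genes called, these counts of 0 are no result about the stretches. Ptprf, Hyi and Med8 are 3 successive measured genes within 0.13 Mb, Ptprf and Hyi higher and Med8 lower in mutants. On the telomere side the stretch of 0.79 Mb from Zbtb8os to Hcrtr1 held 21 measured genes. Of these 6 were called in the average, 4 higher and 2 lower, and 16 had an unadjusted p under 0.05, 8 higher and 8 lower. Ndufs5, Thrap3 and Zmym6 lay apart from these stretches. Over all 251 genes 48 had an unadjusted p under 0.05 in the average (19.1%), against 8.86% of all genes tested, 10 on the centromere side and 38 on the telomere side.

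Counted by the farthest end of the gene, 2 of 56 genes within 2 Mb of Foxo6 were called in the average, 4 of 102 genes from 2 to 5 Mb and 8 of 93 genes from 5 to 10 Mb. Of the 250 genes from 10 to 20 Mb 16 were called (6.4%), of the 659 other genes of chromosome 4 there were 4 (0.607%), and of 18777 genes on other or unknown chromosomes 43 (0.229%). The shares inside the window were 3.57%, 3.92% and 8.6% in order of distance, and no test was made of this order. Just inside the edge of the window Serinc2, Ldc1, Tinagl1 and Agbl4 had average differences of 0.02, 0.05, -0.12 and 0.23, and Hcrtr1 had 0.25. Just outside it Fabp3, Elavl4, Zcchc17 and Dmrta2 had 0.08, 0.07, -0.21 and 0.06. Genes that came near the threshold without passing it were Agbl4 (adjusted p 0.061), Pef1 (0.17, adjusted p 0.0656), Iqcc (-0.21, 0.0809), Smap2 (-0.15, 0.0895) and Hdac1 (-0.12, 0.0988), named here after their values were seen.

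Neighbouring genes in the telomeric stretch also differed in opposite directions. Zbtb8os, on the plus strand, and Zbtb8a, on the minus strand, face each other with their 3′ ends and are 3.8 kb apart, and Zbtb8os was higher and Zbtb8a lower in mutants. Rbbp4, 0.2 kb from Zbtb8os on the other side, had an average difference of 0.01 (adjusted p 0.943). Ccdc28b and Iqcc, 0.2 kb apart, both had negative differences (-0.24 and -0.21, the second not called). Hyi and Med8, 46.5 kb apart on the centromere side, were also opposed (0.45 and -0.35), but the promoter table holds no entry for them. The 250 bases before the table's starts of Ppt1, Cap1, Zbtb8os and Zbtb8a are printed from RefSeq on GRCm38.p6, each on the strand of its gene. They lie at chr4:122835977-122836226 (plus), chr4:122886077-122886326 (minus), chr4:129335718-129335967 (plus) and chr4:129378029-129378278 (minus). Capitals mark the CCAAT box, which reads ATTGG on the other strand, and the TATA box TATAAA.
Ppt1: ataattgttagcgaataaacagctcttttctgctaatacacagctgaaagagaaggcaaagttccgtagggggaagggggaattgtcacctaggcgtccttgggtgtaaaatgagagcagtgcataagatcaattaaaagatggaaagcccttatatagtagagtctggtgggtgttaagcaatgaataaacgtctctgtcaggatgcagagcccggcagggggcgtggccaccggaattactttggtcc
Cap1: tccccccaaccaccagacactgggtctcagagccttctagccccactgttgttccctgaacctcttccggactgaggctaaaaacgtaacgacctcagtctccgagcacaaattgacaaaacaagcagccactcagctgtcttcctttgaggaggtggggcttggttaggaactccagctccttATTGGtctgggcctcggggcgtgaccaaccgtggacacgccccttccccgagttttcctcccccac
Zbtb8os: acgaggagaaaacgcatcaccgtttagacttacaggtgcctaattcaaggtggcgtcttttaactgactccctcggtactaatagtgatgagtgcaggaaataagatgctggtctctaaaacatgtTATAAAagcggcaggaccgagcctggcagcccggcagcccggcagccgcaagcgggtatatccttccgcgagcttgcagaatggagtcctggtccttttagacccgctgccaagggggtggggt
Zbtb8a: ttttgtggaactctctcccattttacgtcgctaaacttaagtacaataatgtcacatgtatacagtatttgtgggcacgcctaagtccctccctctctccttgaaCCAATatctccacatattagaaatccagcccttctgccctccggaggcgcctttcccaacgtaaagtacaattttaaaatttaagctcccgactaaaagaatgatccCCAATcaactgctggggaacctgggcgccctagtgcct
The stretch before Cap1 holds 1 CCAAT box and that before Zbtb8a 2, and 1 TATA box stands before Zbtb8os. The stretch before Ppt1 holds none of the 5 motifs.

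The genotype differences of the 2 states were set against each other gene by gene. Across the 251 genes the basal and the learning difference correlated at Pearson r 0.696 and Spearman rho 0.419, against 0.301 and 0.254 over all genes. Genes share arrays and are not independent, so these values are descriptions. Without Ndufs5 r was 0.577, and over the 237 genes called in no genotype comparison it was 0.365. The difference had the same sign in both states in 157 of 251 genes (62.5%), against 58.5% of all genes. The difference of Skint7, of a family known from skin and thymus, was -0.04 at basal and 0.32 after learning (adjusted p 0.334). That of Mycl was -0.11 and 0.20, with 0 of these called. Both genes were picked after their values were seen, and neither was called in the interaction. Skint7 had a low mean signal of 4.55. Arrays of the genotypes did not overlap in 10 genes at basal (3.98%, against 0.431% of all genes) and in 7 after learning (2.79%, against 0.371%). A gap of 1 direction in basal and learning arrays alike was found in 3 genes (1.2%, against 0.0451%), Ndufs5, Thrap3 and Hyi.

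**Figure D4:**
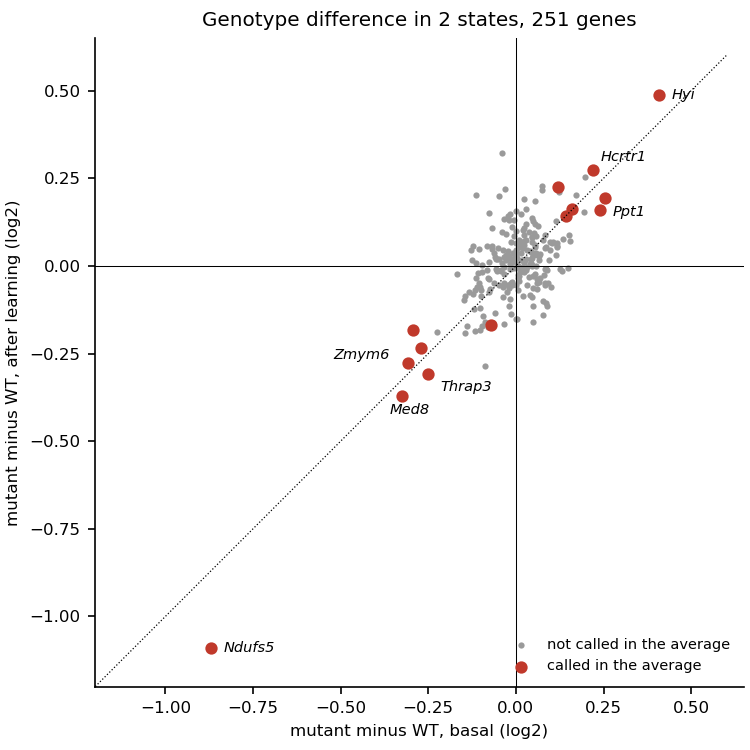
Difference between mutant and WT after learning (vertical axis) against that at basal (horizontal axis), both in log2, for the 251 genes near Foxo6. Red points are the 14 genes called in the average, all in the quadrants where the signs are the same, and the dotted line marks equal differences.

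Whether the genotype difference depended on the state was tested by the interaction, the difference after learning minus that at basal. Near Foxo6 limma called 0 of 251 genes, as it did 0% of all genes tested, and at an unadjusted p under 0.05 there were 6 genes (2.39%), against 2.56% of all genes. The lowest p was that of Mycl, a transcription factor of the Myc family, with an interaction of 0.32 (SE 0.093, unadjusted p 0.00201, adjusted p 1). Mycl lay between 7.52 and 7.80 in WT basal, 7.27 and 7.74 in mutant basal, 7.33 and 7.50 in WT learning and 7.58 and 7.68 in mutant learning arrays. Its mutant arrays were above all WT arrays after learning, with a median of 7.61 against 7.40. The other genes with an unadjusted p under 0.05 were Skint7 (0.36, unadjusted p 0.0112), Skint10 (-0.20, 0.0119), Cap1 (-0.10, 0.034) and the olfactory receptor genes Olfr1330 (0.25, 0.0219) and Olfr1338 (-0.21, 0.0467). All had an adjusted p of 1. For Ndufs5 the interaction was -0.22 (95% interval -0.55 to 0.11, adjusted p 1).

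Many more neighbours of Foxo6 differed between the states than between the genotypes, at the rate of other genes. In WT 111 of 251 were called in learning minus basal (44.2%), 52 higher and 59 lower, against 43.3% of all genes (25.1% higher and 18.2% lower). In mutants 110 were called (43.8%), 50 higher and 60 lower, against 41.3% of all genes (22.6% higher and 18.7% lower). In both genotypes 96 were called in the same direction, which is 86.5% of the WT calls and 87.3% of the mutant calls, and 0 were called in opposite directions. The total shares were thus close to the background in both genotypes, while the directions were divided otherwise: 20.7% of the neighbours rose and 23.5% fell in WT, and 19.9% rose and 23.9% fell in mutants. This difference in direction from all genes was not tested. Values that follow in this comparison are learning minus basal.

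The gene that rose most was Psmb2, which encodes a beta subunit of the proteasome core. It lay between 9.24 and 9.31 in WT basal (median 9.27), 9.96 and 10.05 in WT learning (median 10.02), 9.13 and 9.31 in mutant basal (median 9.27) and 9.82 and 10.07 in mutant learning arrays (median 10.05). The states did not overlap in either genotype, and the difference was 0.75 in WT (adjusted p 4.77e-15) and 0.76 in mutants (adjusted p 2.89e-15). Med8 rose by 0.71 in WT (adjusted p 6.24e-09) and 0.66 in mutants (adjusted p 2.05e-08). Svbp, a partner of the enzymes that remove tyrosine from tubulin, rose by 0.66 and 0.63. Ndufs5 rose by 0.58 in WT (adjusted p 9.85e-05) and 0.37 in mutants (adjusted p 0.0103).

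The other genes among those that rose most had various roles. Cmpk1, a kinase that makes pyrimidine nucleoside diphosphates, rose by 0.51 in WT and 0.44 in mutants. Mycbp, a protein that binds Myc, rose by 0.50 and 0.49, and Lsm10, a component of the U7 particle that processes histone messages, by 0.48 and 0.41. Nasp, a histone chaperone, rose by 0.41 in WT and 0.32 in mutants, and Rbbp4, a histone-binding subunit of chromatin complexes, by 0.41 and 0.45. Mfsd2a, a transporter of lipids at the blood-brain barrier, rose by 0.42 and 0.38. Skint10, with a low mean signal of 3.9, rose by 0.41 in WT and 0.21 in mutants. Prdx1, a peroxidase, rose by 0.40 in WT and 0.39 in mutants, and Atpaf1, an assembly factor of ATP synthase, by 0.40 and 0.37. Of the 6 measured mitochondrial genes 4 rose and 1 fell in each genotype. Of all genes 25.1% rose and 18.2% fell in WT, and 22.6% rose and 18.7% fell in mutants. The mitochondrial gene that fell was Uqcrh (-0.18 in WT, adjusted p 0.00386, and -0.21 in mutants, adjusted p 0.000706).

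Atp6v0b fell most in both genotypes, and most genes on the list of neuronal channels, receptors and synapse genes fell. Atp6v0b, a subunit of the proton pump that acidifies vesicles, lay between 11.78 and 12 in WT basal (median 11.87), 11.02 and 11.23 in WT learning (median 11.10), 11.82 and 12.01 in mutant basal (median 11.87) and 10.95 and 11.12 in mutant learning arrays (median 11.07). The states were apart in both genotypes, and the differences were -0.77 (adjusted p 7.97e-15) and -0.86 (adjusted p 7.56e-16). Adgrb2, an adhesion receptor of neurons, differed by -0.74 in WT and -0.66 in mutants, and Dlgap3, a scaffold of the postsynaptic density, by -0.62 and -0.76. On the list of neuronal channels, receptors and synapse genes 11 of 13 measured genes fell and 0 rose in each genotype. Of all genes 18.2% fell and 25.1% rose in WT, and 18.7% fell and 22.6% rose in mutants. The medians of the list were -0.385 in WT and -0.341 in mutants, against 0.0302 and 0.0307 over all genes. Others on it were Ncdn (neurochondrin, -0.49 and -0.45) and Hpca (hippocalcin, a neuronal calcium sensor, -0.38 and -0.34). Markers of cell types moved with the state too, and their counts stand beside the same shares of all genes. Among pyramidal cell markers 3 of 6 fell in each genotype, and 1 rose in WT and 0 in mutants, while of the 6 interneuron markers 4 rose in WT and 3 in mutants, and 1 fell in each. Choroid plexus markers had lower means after learning in 8 of 8 genes in each genotype, with medians of -0.301 in WT and -0.298 in mutants, and 1 and 3 of them were called. Of 5 astrocyte markers 3 fell in each genotype, and 1 rose in WT and 0 in mutants. Of 6 microglia markers 3 rose and 1 fell in WT, and 2 rose and 1 fell in mutants. Of 6 dentate granule cell markers 2 rose and 1 fell in WT, and 2 rose and 2 fell in mutants. Of 4 oligodendrocyte markers 1 rose and 1 fell in WT, and 2 rose and 1 fell in mutants. The part of these shifts in the learning differences was not tested.

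**Figure D5:**
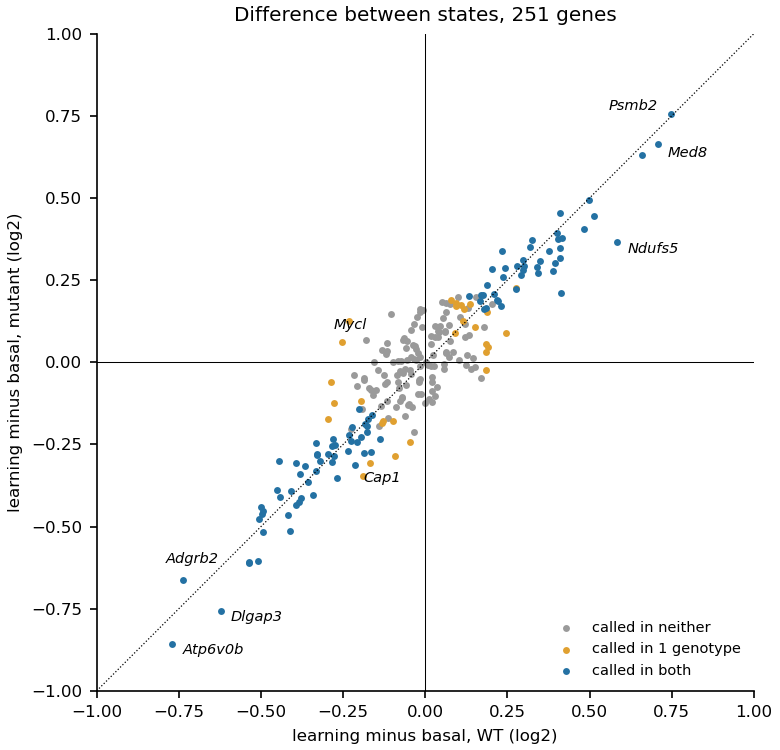
Learning minus basal difference in mutants (vertical axis) against that in WT (horizontal axis), both in log2, for the 251 genes near Foxo6. Blue points were called in both genotypes (96 genes), yellow points in 1 genotype and grey points in neither, and the dotted line marks equal differences.

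Further genes that fell were Smap2, which regulates vesicle traffic through Arf proteins (-0.54 in WT and -0.61 in mutants), and Mknk1, a kinase of the translation factor eIF4E (-0.54 and -0.61). Tie1, a receptor of endothelial cells, differed by -0.51 and -0.61, beside endothelial and blood markers of which 2 of 4 fell in WT and 3 of 4 in mutants. Pou3f1, a transcription factor of the POU family, differed by -0.51 and -0.48. Csmd2, a large membrane protein of neurons, differed by -0.50 in WT and -0.44 in mutants, and Map7d1, a microtubule-associated protein, by -0.50 and -0.46. Ipo13, a nuclear import receptor, differed by -0.49 and -0.52, Pomgnt1, an enzyme that glycosylates dystroglycan, by -0.41 and -0.51, and Rnf220, a ubiquitin ligase, by -0.42 and -0.46. All values of single neighbours given here for learning minus basal had an adjusted p under 0.05. For the counts of lists and markers given here, 25.1% of all genes rose and 18.2% fell in WT, and 22.6% rose and 18.7% fell in mutants. No list was tested against these shares, and several lie near them. On the list of signalling genes 3 rose and 7 fell of 17 measured in WT, and 2 rose and 7 fell in mutants. Transcription and chromatin genes went both ways, with 9 up and 9 down of 31 in WT and 9 up and 8 down in mutants, and among RNA processing and translation genes 8 rose and 3 fell of 19 in WT and 9 rose and 3 fell in mutants. Metabolic enzymes and transporters gave 7 up and 4 down of 19 in WT and 7 up and 3 down in mutants. Cytoskeletal genes gave 2 up and 5 down of 9 in WT and 2 up and 4 down in mutants. Lysosome, lipid and glycan genes gave 2 up and 4 down of 9 in WT and 1 up and 4 down in mutants. In cell division and DNA repair 2 of 10 rose in WT and 1 in mutants, and 0 fell.

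Gene families that are clustered near Foxo6 had low signals. These were 7 Skint genes, 10 olfactory receptor genes, 7 genes of cytochrome P450 family 4 and 3 microRNA genes, with 0 called between genotypes, against 0.391% of all genes in the average. Their mean signals were 3.64 to 4.55, 4.03 to 5.28, 4.09 to 6.76 and 4.80 to 5.90, all below 6.91, the median of all genes, and their average genotype differences ranged from -0.10 to 0.14. Of the 14 genes called in the average 12 were among the 130 neighbours with a mean signal above that median, and 2 among the other 121, so differences of dim probes may have gone undetected. The table gives no detection calls.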

How the data were processed

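Expression was measured in 24 hippocampus samples, which the labels call biological replicates, so p values measure the spread between mice as labelled. The deposited values are log2 expression that the authors made with RMA, per the submitters' processing notes; RMA corrects background, equalises the quantiles of the arrays and summarises the probes of each transcript cluster. The sources used here name no version of it. The values were not transformed further, and no dim genes were left out. The number of arrays limits the precision. No batch label was given for the arrays.

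Gene symbols came from the platform annotation and positions from RefSeq on GRCm38.p6; 250 of the 251 genes were matched by Entrez identifier and 1 by symbol, and 1 gene that crosses the window edge was left out. In R 4.3.3 with limma 3.58.1, 1 linear model with a mean for each of the 4 groups and eBayes with a mean-variance trend was fitted to all 19938 genes. The comparisons were mutant minus WT in each state and averaged, learning minus basal in each genotype, and the interaction. Adjusted p values are from limma after Benjamini and Hochberg over all genes, and a gene was called under 0.05. The method was tested on simulated data. Single genes were also compared by an exact permutation test.

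The genes, the lists and the comparisons were chosen with earlier results of these data known. Named are Foxo6, every gene called in a genotype comparison, the 5 nearest genes on each side, the 10 called genes with the largest and the 10 with the lowest difference in each learning comparison, up to 3 called genes per direction of each list or else the 2 with the smallest p, the 5 with the smallest p in the interaction and Olfr1338, which was added after its values were seen, and the 3 most like and 3 most unlike Ndufs5. Several lists are given by counts alone in the learning comparisons. Clone names and pseudogenes were skipped, apart from Hyi.

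The sample titles number the replicates but give no pairing, and the main fit used none. Of 12 correlations between same-numbered arrays of different groups within a state, from -0.247 to 0.263, 1 exceeded 0.1. Low correlations cannot exclude a pairing. Alternatives covered scaling, probe choice, dim genes, the arrays in the fit, the spread, array weights, a replicate block, a choroid plexus covariate, the window and each array left out.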

Additional observations from a re-analysis of the deposited data

Results flagged for a closer look

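Among 60 combinations of a gene (Foxo6 and the 14 called genes) and a group of 6 arrays, 7 held an array that stood apart from the other 5 by more than Dixon's 95% critical value; chance flags about 1 in 20 such groups. In WT basal these were array 4 of Hyi at 6.88 (low), array 6 of Med8 at 7.10 (low) and array 2 of Zbtb8a at 6.97 (high). In mutant basal it was array 6 of Foxo6 at 6.59 (high). In WT learning these were array 4 of Ccdc28b at 7.16 (low) and array 5 of Ndufs5 at 9.21 (low). In mutant learning it was array 3 of Hcrtr1 at 6.73 (high). In data outside the gene comparisons, 1 of 17 probes that name several genes with at least 1 near Foxo6 was called in the average of both states: the probe of Ndufs5 and Ndufs5-ps, lower in mutants by a difference of -0.24 (adjusted p 0.0178). Of 14 further probes of the neighbours 0 were called in the average by limma. Of these 14 probes 3 had an unadjusted p under 0.05 (Hdac1, Cfap57 and Khdrbs1, 0.00291 to 0.00783). Among all genes tested 0.391% were called in the average and 8.86% had an unadjusted p under 0.05. At that rate of calls the count of 0 is no result about the 14 probes. None of them belongs to a gene called in a genotype comparison.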

How the results depend on the processing

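No result changed direction. Of the 14 genes called in the average, 8 kept the call in every setting that tested them and with every array left out: Ndufs5, Hyi, Thrap3, Med8, Ppt1, Ptp4a2, Zbtb8a and Zmym6. Lost in at least 1 were Cap1, Ccdc28b, Eif3i, Hcrtr1, Ptprf and Zbtb8os. The count of 14 was 9 after centring every array on the median of its values, 9 with the choroid plexus markers as a covariate, 8 without WT basal arrays 4, 5 and 6 (chosen after seeing the data), 6 within 5 Mb and 30 within 20 Mb. The basal count of 4 was 2 after centring, 2 without a mean-variance trend, 2 without those 3 arrays, 10 with array weights and 7 within 20 Mb. The learning count of 5 was 3 after centring, 3 without the trend, 3 with array weights and 2 with only the 12 arrays compared. The learning minus basal counts were 72 (WT) and 68 (mutant) within 5 Mb and 206 and 206 within 20 Mb; these windows hold fewer or more genes. Leaving out 1 array gave 2 to 6 calls at basal (2 without WT or mutant basal array 2), 3 to 5 after learning (3 without mutant learning array 1 or 3, or WT learning array 2 or 5) and 9 to 16 in the average (9 without mutant learning array 1). With the replicate block, whose numbers are not given as pairs, the counts were 4 at basal, 5 after learning and 11 in the average. In that average Ccdc28b, Eif3i and Zbtb8os lost their calls. All these counts are of neighbours alone. The shares of all genes called in the other fits are not given here. Whether a changed count is particular to the neighbours is therefore not known. Among single genes in 1 state, Thrap3 at basal lost its call after centring (-0.24, adjusted p 0.152), without the trend (-0.25, 0.0546), with the choroid plexus covariate (-0.22, 0.0979) and without the 3 WT arrays (-0.26, 0.115), as did Hyi at basal without them (0.37, 0.199) and Hyi after learning with only its 12 arrays (0.49, 0.0594). Ppt1 at basal lost it after centring (0.25, 0.102), with only its 12 arrays (0.24, 0.063) and without the trend (0.24, 0.0546). Med8 after learning lost it after centring (-0.38, 0.11), with every probe tested (-0.37, 0.0537), with its 12 arrays (-0.37, 0.0876), without the trend (-0.37, 0.0784) and with array weights (-0.32, 0.179), and gained it at basal with array weights (-0.36, 0.00364). Cap1 after learning lost it after centring (-0.17, 0.274), with its 12 arrays (-0.17, 0.0998), without the trend (-0.17, 0.155) and with array weights (-0.16, 0.0628). With 1 array left out these ranged from 0.38 to 0.43 (Hyi basal), -0.26 to -0.23 (Thrap3 basal), -0.39 to -0.30 and -0.41 to -0.32 (Med8 basal and learning), 0.21 to 0.27 (Ppt1 basal) and -0.18 to -0.15 (Cap1 learning). The causes were not tested.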
